A study of Mus musculus with 61 samples.

Results

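The 33 genes described here encode the transporters and enzymes of glycolysis together with genes of the cellular response to low oxygen. They were taken by symbol from a list of the pathway, not by any measured value, and all 33 are among the 24421 genes of the count tables. By role, 4 are membrane transporters of glucose or lactate, 11 act in upper glycolysis, 6 in lower glycolysis, 3 decide the fate of pyruvate, 3 belong to the oxygen sensor and 6 are other targets of the hypoxia response. At least 10 reads over an experiment were found for 33 members in each background of CD4+ T cells and for 32 in splenic T cells and in spleens, where Eno1 was not read.

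The study measured RNA by sequencing in mice and mouse cells carrying variants of STAT5B, the transcription factor that cytokines such as IL-2 and IL-7 activate through JAK kinases. Naive CD4+ T cells, taken from spleens pooled with lymph nodes, came from WT or Stat5a/b-null mice, the latter made with floxed Stat5a/b and a Cre driven by Cd4, and were activated through the T-cell receptor and CD28, transduced with a retrovirus, kept in IL-2 for 48 h and only then sorted for the GFP of the vector. The vector was empty or encoded STAT5B, N642H, Y665F or Y665H, with 3 libraries per vector and background. The genotype entry of the labels names floxed Stat5a/b for all of these libraries, and the background is that of the titles. N642H is a variant known from T-cell leukaemia, and Y665F and Y665H change the same tyrosine to phenylalanine or histidine. Splenic T cells of WT, Y665H and Y665F knock-in mice were cultured for 24 h with IL-2 and IL-7, with 4 libraries per genotype in the labels, and 3 more libraries held Y665F T cells without interleukin, which the sources do not say were cultured. Replicate 4 of the Y665H T cells is not a separate sample, since its count equals the sum of replicates 1 and 2 on all 24426 lines of the table (5327354 reads on genes, the sum of 3310342 and 2017012). It was left out, so that Y665H had 3 libraries, while replicates 1 and 2 differed from each other by far more than counting noise (chi-square per degree of freedom 17.1) and were both kept. The last set is of spleens without stimulation, named splenocytes in the titles, with 4 libraries of WT, 5 of Y665H and 7 of Y665F mice. All mice were 2 months old. The labels give no zygosity of the knock-in mice, and they do not say that replicates came from separate animals or cultures, so p-values measure the spread between these libraries.

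Glycolysis turns glucose into pyruvate in the cytosol, and activated T cells pass much of this pyruvate on to lactate even when oxygen is at hand. The hypoxia-inducible factor HIF-1, made of HIF-1 alpha (Hif1a) and ARNT, raises many of these genes, while the prolyl hydroxylases encoded by Egln1 and Egln3 mark HIF-1 alpha for breakdown when oxygen is present. IL-2 signalling and Myc are also known to raise glycolytic genes in T cells.

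HIF binds DNA at short cores that read ACGTG or GCGTG, and STAT5 dimers bind TTCNNNGAA. In RefSeq promoter windows of GRCm38.p6, each 250 bases before to 50 bases after a gene's start, 31 of the 33 members were found, and Slc2a3 and Ndrg1 were not. The core ACGTG, read on both strands, was present in a window of 22 of these 31 members, or 71.0%, against 21.8% of all 27025 symbols with a window, and GCGTG in 21 of them, or 67.7%, against 35.2%. TTCNNNGAA was present in 2 of the 31, Aldoc and Pfkm, or 6.45%, against 9.55% of all symbols. Many members were listed because they are known targets of HIF, and a match of letters is not a bound site. In Y665F T cells the paper places STAT5B peaks with H3K27ac at more genes in introns and putative distal enhancers than at promoters. The lack of a motif in these windows thus says little about STAT5 binding. The stretches below lie before the start of Egln3, Hk2 and Slc2a1, the members that rose with both N642H and Y665F in Stat5a/b-null cells, and of Ldha, whose window held the largest number of ACGTG among the members. The capitals mark ACGTG and GCGTG on either strand, and the palindrome CACGTG counts as 2 matches of ACGTG.
Egln3, chr12:54204079-54204123, minus strand: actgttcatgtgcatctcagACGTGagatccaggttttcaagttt
Hk2, chr6:82774482-82774700, minus strand: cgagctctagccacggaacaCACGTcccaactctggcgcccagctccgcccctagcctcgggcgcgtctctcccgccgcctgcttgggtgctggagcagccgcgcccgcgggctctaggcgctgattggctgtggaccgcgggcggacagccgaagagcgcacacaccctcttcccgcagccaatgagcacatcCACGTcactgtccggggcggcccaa
Slc2a1, chr4:119108664-119108733, plus strand: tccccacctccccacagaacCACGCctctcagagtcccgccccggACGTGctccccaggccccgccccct
Ldha, chr7:46845639-46845794, plus strand: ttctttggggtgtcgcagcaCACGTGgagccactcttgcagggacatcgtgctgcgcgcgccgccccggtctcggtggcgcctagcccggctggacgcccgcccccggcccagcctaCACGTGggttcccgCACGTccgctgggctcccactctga
Egln3 held 1 match at 229 bases before its start, Hk2 held 2 that lie 226 and 52 bases before it, and Slc2a1 held 1 of each core within 61 bases of it.

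A CD4+ T-cell library had 18825994 to 49850689 reads on genes, a splenic T-cell library 2017012 to 27394249 and a spleen library 24203179 to 43330536. Levels are given as CPM, read counts scaled to the same total of reads on genes in each library and TMM-adjusted within an experiment, so that levels of different experiments stand side by side without a test. Per kilobase of exon, Ldha was the highest member in CD4+ T cells at 1014 CPM per kilobase averaged over the 10 groups, followed by Pkm at 837, Gapdh at 827 and Pgk1 at 780. In splenic T cells Hif1a led at 92.4 CPM per kilobase and Ldha followed at 65.55, and in spleens Ldha led at 55.5. Egln3 had group means from 26.3 to 377 CPM in CD4+ T cells and at most 5.21 CPM in splenic T cells. Eno1, which encodes the main enolase of most tissues, was listed with at most 8 reads in a CD4+ library and is not described further, since it is known to have a near-identical copy with which it can share reads. Several members, Gapdh, Ldha, Pgk1, Tpi1 and Pgam1 among them, are also known to have processed pseudogenes that can take reads away from them, and their levels are uncertain to that extent. As a check of the constructs, Stat5b lay between 2.78 and 9.49 CPM in null cells with the empty vector and between 186 and 365 CPM with the 4 constructs, and its target Socs2 between 2.86 and 7.25 CPM against 180.3 to 329.9 CPM with N642H or Y665F. Cish, another target, reached 366 CPM with N642H in null cells from at most 31.1 CPM with the empty vector, and Myc reached 243 CPM from at most 133 CPM. Some libraries stood apart in members, namely empty-vector replicate 3 of the null cells and replicate 1 of the Y665H spleens, and 3 splenic T-cell libraries, replicates 1 and 2 of Y665H with 3310342 and 2017012 reads and replicate 3 of Y665F with interleukins with 2851451, were the shallowest of the series, so the results that rest on them are also given without them.

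In Stat5a/b-null CD4+ T cells, N642H and Y665F raised Egln3, Hk2 and Slc2a1 above the empty vector and lowered Pfkfb4, while the abundant enzymes of lower glycolysis did not pass the test. Of 33 members, 4 were higher with N642H against 5.67% of all 20113 genes tested, and 1 was lower against 5.97%, by edgeR's quasi-likelihood test at a Benjamini-Hochberg adjusted p under 0.05. With Y665F, 3 members were higher against 5.16% of all genes and 1 was lower against 4.42%. The median log2 fold change of the members was 0.13 with N642H and 0.23 with Y665F, against 0.01 and -0.02 over all genes. Of 8 T-cell markers, 4 were lower with N642H and 3 with Y665F, 2 of 8 cycling genes were higher with each, and the part of these in the result was not tested. In such bulk samples, fewer cells of a type and less RNA per cell cannot be told apart.

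Egln3 encodes the prolyl hydroxylase PHD3, itself a known target of HIF. It stood at 13.4, 13.5 and 52.1 CPM in the 3 libraries with the empty vector, at 141, 158 and 121 CPM with N642H and at 215, 142 and 74.5 CPM with Y665F. Both mutants lay above all empty-vector libraries, although empty-vector replicate 3 was about as high as the 53.6, 49.3 and 45.5 CPM of the STAT5B libraries. The log2 fold change of Egln3 was 2.38 (SE 0.60, adjusted p = 0.014) with N642H and 2.43 (SE 0.60, adjusted p = 0.0153) with Y665F. Without empty-vector replicate 3 these values were 3.35 (adjusted p = 0.00149) and 3.40 (adjusted p = 0.00163), while without empty-vector replicate 1 or 2 neither passed the test, nor did that of Y665F without its replicate 1.

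Hk2 encodes hexokinase 2, the inducible enzyme that traps glucose in the cell as its phosphate. Its levels were 56.3, 62.2 and 108 CPM with the empty vector, 164, 153 and 148 CPM with N642H and 158, 140.4 and 140.0 CPM with Y665F, so the groups did not overlap. The log2 fold change was 1.00 (SE 0.27, adjusted p = 0.0211) with N642H and 0.92 (SE 0.27, adjusted p = 0.0383) with Y665F. Slc2a1, the gene of the glucose transporter GLUT1, stood at 100.2, 103 and 145 CPM with the empty vector, 184, 199.6 and 183 CPM with N642H and 231, 186 and 166 CPM with Y665F. Here too every mutant library was above every empty-vector library, with log2 fold changes of 0.67 (SE 0.19, adjusted p = 0.031) and 0.72 (SE 0.19, adjusted p = 0.0246). For both genes and both mutants, the call was lost without empty-vector replicate 1 or 2 and without replicate 1 or 2 of the mutant.

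Pfkfb4, a kinase-phosphatase that sets the level of the glycolytic activator fructose 2,6-bisphosphate, went the other way at 12.4, 10.2 and 6.70 CPM with the empty vector, 6.72, 6.22 and 6.47 CPM with N642H and 7.31, 5.38 and 5.76 CPM with Y665F. Empty-vector replicate 3 lay within the range of the mutants. The log2 fold change was -0.63 (SE 0.20, adjusted p = 0.0443) with N642H and -0.70 (SE 0.20, adjusted p = 0.0311) with Y665F. Slc16a1, the gene of the lactate transporter MCT1, stood at 115, 97.9 and 97.4 CPM with the empty vector and 152, 153 and 124 CPM with N642H, with no overlap and a log2 fold change of 0.44 (SE 0.13, adjusted p = 0.041). The call of Pfkfb4 with N642H was lost without any 1 of the 5 libraries other than empty-vector replicate 3, and that of Slc16a1 without any 1 of 4 libraries, which left 0 of the 5 calls with N642H without empty-vector replicate 2, and 1 without empty-vector replicate 1 or without N642H replicate 1 or 2. With Y665F, 0 of the 4 calls were left without empty-vector replicate 1 or 2, 1 without Y665F replicate 1 or 2, and 7 members were called without Y665F replicate 3. Without empty-vector replicate 3, 6 members were called with either mutant, and Vegfa and Slc16a3 were then among those higher. The share over all genes is not given for these fits or for any other fit with libraries left out, so such counts stand without a comparison.

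Libraries with the same replicate number deviated together in the null cells, and with the number as a block more members passed the test. With N642H, 7 members were then higher against 9.90% of all genes and 2 lower against 10.6%, and the added members were Pgam1 at a log2 fold change of 0.35 (adjusted p = 0.048), Ldha at 0.44 (adjusted p = 0.012) and Slc16a3 at 0.55 (adjusted p = 0.0372) above the empty vector and Ldhb at -0.43 (adjusted p = 0.00378) below it. With Y665F, 9 were higher against 9.38% and 2 lower against 8.98%, with Pfkl at 0.38 (adjusted p = 0.0408), Pgam1 at 0.48 (adjusted p = 0.00853), Pkm at 0.47 (adjusted p = 0.0392), Ldha at 0.48 (adjusted p = 0.0076), Slc16a1 at 0.39 (adjusted p = 0.00567), Slc16a3 at 0.63 (adjusted p = 0.0189) and Hif1a at -0.36 (adjusted p = 0.0425) added. Ldha encodes the subunit of lactate dehydrogenase that favours lactate, Ldhb the subunit that favours pyruvate, and Slc16a3 the lactate exporter MCT4.

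STAT5B itself gave 0 called members over the empty vector in null cells, beside 1.52% of all genes called, while 7 members had an unadjusted p under 0.05. DESeq2 called 2 members, beside 1427 of 12313 genes. The members with the smallest p at a level of at least 1 CPM were Slc16a3 and Slc2a1. Slc16a3 stood at 182, 179 and 255 CPM with the empty vector and 334, 363 and 279 CPM with STAT5B, and Slc2a1 at 185, 184 and 160.1 CPM with STAT5B. In neither gene did the groups overlap, and the log2 fold changes were 0.65 (SE 0.20, adjusted p = 0.109) and 0.60 (SE 0.19, adjusted p = 0.13). Both were picked by their p in these same libraries, so the lack of overlap is no further support. With the replicate block, 5 members were higher against 5.35% of all genes, namely Hk2 at 0.83 (adjusted p = 0.0213), Slc16a3 at 0.67 (adjusted p = 0.0243), Slc2a1 at 0.61 (adjusted p = 0.0303), Pfkl at 0.42 (adjusted p = 0.0372) and Ldha at 0.42 (adjusted p = 0.0303), and 2 were lower against 4.15%, namely Hif1a at -0.40 (adjusted p = 0.0421) and Ldhb at -0.38 (adjusted p = 0.0196). Without empty-vector replicate 3, 3 members were called, Hk2, Slc16a3 and Slc2a1.

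Y665H gave 0 called members over the empty vector, by edgeR with and without the block and by DESeq2, beside 0.0249% of all genes called, and 0 members had an unadjusted p under 0.05. The 2 members with the smallest p were Ankrd37, a hypoxia target, and Aldoa, the aldolase of most tissues. Ankrd37 stood at 19.2, 11.7 and 28.1 CPM with Y665H against 15.1, 9.998 and 18.3 CPM with the empty vector, and Aldoa at 1461, 1079 and 1707 CPM against 1266, 952 and 1268 CPM. The groups overlapped in both, with log2 fold changes of 0.46 (SE 0.25, adjusted p = 0.896) and 0.30 (SE 0.17, adjusted p = 0.896).

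**Figure D1:**
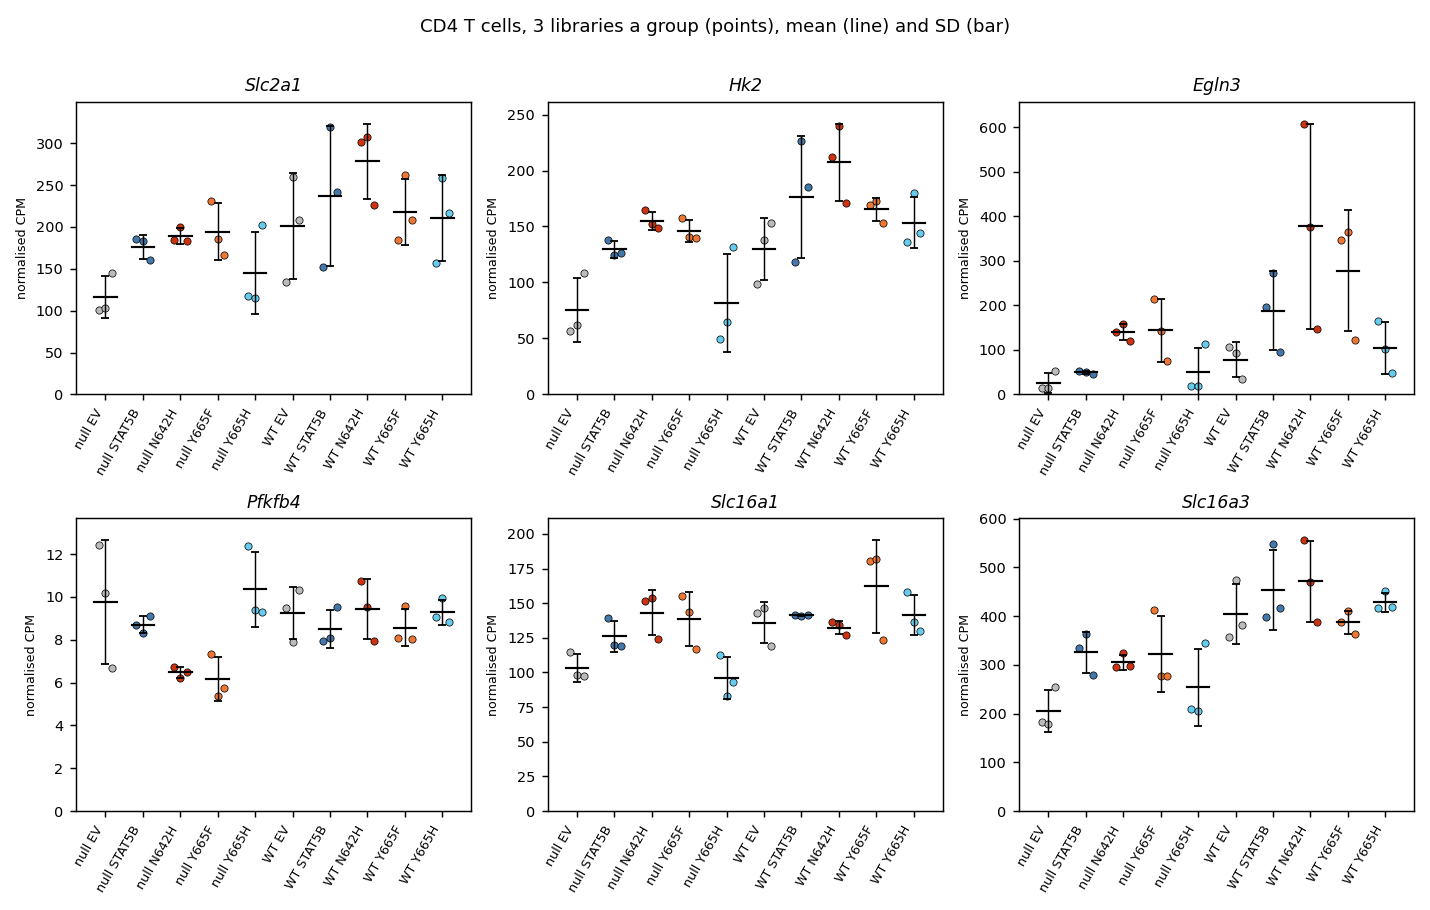
Normalised CPM (vertical axis, from 0) of 6 members in the 10 groups of CD4+ T cells (horizontal axis), with a point per library, the mean as a line and the SD as a bar. In null cells, Slc2a1, Hk2 and Egln3 lie above the empty vector (EV) in all libraries with N642H or Y665F, and the WT groups of Egln3 spread from 33.8 to 608 CPM.

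Set against unmutated STAT5B in the null cells, 0 members were called with N642H, beside 0.0845% of all genes, 0 with Y665F, beside 0.0199%, and 0 with Y665H, beside 0.229%, and DESeq2 also called 0 in each. An unadjusted p under 0.05 was found for 2, 2 and 3 members. Egln3 and Pfkfb4 had the smallest p with both activating mutants. Egln3 was above all 3 STAT5B libraries in all libraries of N642H and Y665F, with log2 fold changes of 1.47 (SE 0.58, adjusted p = 0.762) and 1.52 (SE 0.58, adjusted p = 0.924). Pfkfb4, at 8.67, 8.33 and 9.12 CPM with STAT5B, was below them in all libraries of both mutants, with log2 fold changes of -0.46 (SE 0.20, adjusted p = 0.804) and -0.52 (SE 0.20, adjusted p = 0.915). With Y665H the smallest p belonged to Slc16a1 and Ldhb. Slc16a1 stood at 112, 82.96 and 93.1 CPM with Y665H against 139, 120.0 and 119 CPM with STAT5B, without overlap and with a log2 fold change of -0.37 (SE 0.13, adjusted p = 0.312). It was the 1 member called lower with the replicate block, beside 2.83% of all genes, at -0.37 (adjusted p = 0.0324). Ldhb stood at 63.6, 54.96 and 57.9 CPM against 45.03, 43.5 and 52.9 CPM, also without overlap, with a log2 fold change of 0.34 (SE 0.14, adjusted p = 0.39). Egln3, Pfkfb4, Slc16a1 and Ldhb were picked by their p in these same libraries, so the lack of overlap is no further support.

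In WT CD4+ T cells, where the vectors add to endogenous STAT5, Egln3 was again the member with the largest difference for N642H among the genes above 1 CPM, but none passed the test without the block. The count of called members was 0 with STAT5B, beside 0.00975% of all 20509 genes, 0 with N642H, beside 1.52%, 0 with Y665F, beside 1.26%, and 0 with Y665H, beside 0.00488%. An unadjusted p under 0.05 was found for 3, 5, 1 and 0 members in this order, and DESeq2 called 0, 3, 1 and 0. Over all genes, DESeq2 called 789 of 13746 with N642H and 975 of 13746 with Y665F. The median log2 fold change of the members was 0.24 with N642H against -0.04 over all genes, and 29 of the 33 were above 0.

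Egln3 stood at 107, 93.01 and 33.8 CPM with the empty vector, 196, 273 and 95.6 CPM with STAT5B, 608, 375 and 148 CPM with N642H and 346, 365 and 122 CPM with Y665F. In every one of these groups replicate 3 was the lowest library. The groups overlapped for STAT5B, while N642H and Y665F lay above all empty-vector libraries, with log2 fold changes of 1.28 (SE 0.57, adjusted p = 1), 2.29 (SE 0.58, adjusted p = 0.0674) and 1.83 (SE 0.57, adjusted p = 0.14). With the replicate number as a block, libraries of the same number being alike in WT cells too, Egln3 was the 1 member higher with STAT5B, beside 0.785% of all genes, at 1.34 (adjusted p = 5.65e-05), and with Y665F, beside 6.66%, at 1.85 (adjusted p = 8.6e-08).

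With N642H and the block, 7 members were higher, beside 4.71% of all genes, and 0 lower. They were Egln3 at 2.25 (adjusted p = 5.88e-09), P4ha2 at 1.41 (adjusted p = 0.00275), Vegfa at 0.91 (adjusted p = 0.00123), Hk2 at 0.70 (adjusted p = 0.00295), Ndrg1 at 0.67 (adjusted p = 0.0109), Slc2a1 at 0.55 (adjusted p = 0.0215) and Pfkp at 0.48 (adjusted p = 0.0192). Of these, P4ha2 is a collagen prolyl hydroxylase, Vegfa the main growth factor of blood vessels, Ndrg1 a stress-induced gene and Pfkp the platelet form of phosphofructokinase, and the first 3 are known targets of HIF. Vegfa stood at 23.5, 33.4 and 32.2 CPM with the empty vector, 61.5, 71.4 and 35.8 CPM with N642H and 44.1, 52.1 and 31.8 CPM with Y665F, apart from the empty vector with N642H at 0.94 (SE 0.25, adjusted p = 0.0846) and overlapping with it with Y665F at 0.53 (SE 0.25, adjusted p = 0.35). Without N642H replicate 3, Egln3 and Vegfa were called with N642H, and without Y665F replicate 3, Egln3 and Slc16a1 were called with Y665F.

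Hk2 had the second smallest p with STAT5B and the smallest with Y665H in WT cells. It stood at 99.1, 138 and 153 CPM with the empty vector, 118, 226 and 185 CPM with STAT5B and 136, 179.8 and 145 CPM with Y665H, and the groups overlapped at 0.45 (SE 0.20, adjusted p = 1) and 0.24 (SE 0.20, adjusted p = 1). Pgam1, the phosphoglycerate mutase of most tissues, came next with Y665H at 219.7, 205 and 201 CPM against 164, 226 and 184 CPM, with overlap and a log2 fold change of 0.13 (SE 0.12, adjusted p = 1).

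The response to a construct was also compared between the backgrounds, as the difference of its log2 fold changes over the empty vector in null and in WT cells. For N642H, 0 members were called beside 0.387% of all 21975 genes, with 3 at an unadjusted p under 0.05 and 0 by DESeq2, and for Y665F, 0 were called beside 0.478%, with 3 at an unadjusted p under 0.05 and 0 by DESeq2. Slc16a1 had the smallest p for N642H. In WT cells it stood at 143, 146 and 119 CPM with the empty vector and 136, 134 and 127 CPM with N642H, and the difference of responses was 0.51 (SE 0.20, adjusted p = 0.366). With replicate blocks of each background it was the 1 member called higher, beside 2.90% of all genes, at 0.50 (adjusted p = 0.0374). Pfkfb4 stood at 9.50, 7.91 and 10.3 CPM with the empty vector and 10.8, 9.54 and 7.96 CPM with N642H in WT cells, with a difference of -0.62 (SE 0.26, adjusted p = 0.407). For Y665F the smallest p belonged to Slc16a3 at a difference of 0.71 (SE 0.27, adjusted p = 0.389) and Pfkl, a phosphofructokinase subunit, at 0.49 (SE 0.21, adjusted p = 0.467). Slc16a3 stood at 412, 277 and 277 CPM with Y665F in null cells, and at 358, 473 and 383 CPM with the empty vector and 388, 411 and 363 CPM with Y665F in WT cells. Pfkl stood at 300.0, 238 and 326 CPM with the empty vector and 478, 328 and 342 CPM with Y665F in null cells, and at 347, 429.5 and 418 and 375, 339 and 420.5 CPM in WT cells. The same libraries of the empty vector enter all of these responses.

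Loss of Stat5a/b went with lower levels of glycolytic genes. With the empty vector, 9 members were lower in null than in WT cells, beside 7.06% of all genes, and 1 was higher, beside 6.83%. The median log2 fold change of the members was -0.41 against -0.12 over all genes, and 28 of the 33 were below 0. By role, the lower ones were the transporters Slc2a1 and Slc16a3, 4 of 11 genes of upper glycolysis, 2 of 6 of lower glycolysis and Ldha. Of the 6 other hypoxia targets 0 passed the test, but their log2 fold changes also lay below 0, from -0.84 to -0.26. Their median was -0.48, against -0.41 in upper and -0.56 in lower glycolysis. All 8 genes of a list of cycling genes were lower as well, with a summed level of 3114 to 3978 CPM in null cells against 4625 to 5901 CPM in WT cells, and of 8 T-cell markers 4 were higher, Cd8b1 at 1.30 (adjusted p = 6.22e-05) and Cd3e, Cd3d and Cd3g by 0.49 to 0.58 on the log2 scale. Of 6 macrophage markers Cd5l was higher at 3.04 (adjusted p = 0.012) and of 7 neutrophil markers Ltf was lower at -3.49 (adjusted p = 0.0394), while 0 of 6 B-cell and 0 of 7 erythroid markers were called. Cd5l and Ltf belong to lists with very few reads. Macrophage markers summed to 2.78 to 7.15 CPM in null and 1.03 to 1.77 CPM in WT cells, and neutrophil markers to 0.0825 to 0.345 CPM and 0.399 to 0.799 CPM. The part of these in the result was not tested. The labels do not say whether null and WT libraries were prepared together, and only 35 of 75 pairs of the same number across backgrounds deviated together.

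Slc16a3 stood at 182, 179 and 255 CPM in null cells and 358, 473 and 383 CPM in WT cells, without overlap and with a log2 fold change of -0.98 (SE 0.19, adjusted p = 0.000721). Pkm, the pyruvate kinase of these cells, stood at 3039, 2208 and 2812 CPM against 4658, 5845 and 3686 CPM, also without overlap, at -0.82 (SE 0.22, adjusted p = 0.0107). Gapdh, the dehydrogenase at the head of lower glycolysis, stood at 2694, 1709 and 2308 CPM against 3710.1, 4579 and 3066 CPM, again apart, at -0.76 (SE 0.21, adjusted p = 0.0149). These 3 genes showed the same order of groups in every library, and how many of all genes did so was not counted.

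Slc2a1 was at 135, 259.6 and 209 CPM in WT cells and Hk2 at 99.1, 138 and 153 CPM, and both groups overlapped with the null values above, at -0.79 (SE 0.25, adjusted p = 0.0304) and -0.78 (SE 0.26, adjusted p = 0.042). Ldha, Aldoa, Tpi1 (triosephosphate isomerase) and Pfkl were lower by log2 fold changes between -0.70 and -0.47. Ldhb was the exception, at 65.8, 53.3 and 64.03 CPM in null cells and 26.9, 30.7 and 33.1 CPM in WT cells, without overlap and with a log2 fold change of 1.01 (SE 0.17, adjusted p = 0.000166). Only Ldhb and Slc16a3 kept their calls without null replicate 2 or without WT replicate 2, where 2 members were called.

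Among pathway genes outside the 33, a few passed the test in the null comparisons. Of 23 further glycolysis genes, 2 were higher and 1 lower with N642H, and the same count was found with Y665F. The ADP-dependent glucokinase gene Adpgk was higher at 1.52 (adjusted p = 0.000179) and 1.45 (adjusted p = 0.00032), and Bpgm, which makes 2,3-bisphosphoglycerate, at -0.90 (adjusted p = 0.00168) and -0.90 (adjusted p = 0.00194). In null against WT cells, 2 of the 23 were higher and 2 lower, with Adpgk at -2.10 (adjusted p = 6.92e-06) and Bpgm at 1.02 (adjusted p = 0.000228). Of 27 further targets and regulators of HIF, 1 was higher and 1 lower with N642H and 2 were higher with Y665F. The carbonic anhydrase gene Car12 was higher with both, at 1.21 (adjusted p = 0.000977) and 1.19 (adjusted p = 0.00142), Vhl, which marks HIF-1 alpha for breakdown, was lower with N642H at -0.50 (adjusted p = 0.0169), and Mif was higher with Y665F at 0.61 (adjusted p = 0.0257). In null against WT cells, 2 of the 27 were higher and 4 lower, with Loxl2 at 2.33 (adjusted p = 0.0185) and Stc2 at -1.84 (adjusted p = 0.0023) moving most, and Car12 was the 1 gene of these lists whose response to Y665F differed between backgrounds, at 1.34 (adjusted p = 0.0141). In WT cells with N642H, Adm at 3.32 (adjusted p = 0.0104) and Mxi1 at 1.54 (adjusted p = 0.0488) were the 2 of 27 that were higher. The median log2 fold changes of these 2 lists lay between -0.17 and 0.18 in the comparisons named. Of all genes, 5.67% were higher and 5.97% lower with N642H in null cells, and 5.16% and 4.42% with Y665F. In null against WT cells, 6.83% were higher and 7.06% lower. With N642H in WT cells 1.52% were called, and 0.478% differed between backgrounds in their response to Y665F.

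Of 7 genes of the pentose phosphate pathway, 0 were called with N642H or Y665F in null cells, while in null against WT cells 1 was higher and 3 lower, led by Tkt at -0.65 (adjusted p = 0.015) and Pgls at -0.47 (adjusted p = 0.0394). Of 20 genes of pyruvate dehydrogenase and the TCA cycle, 4 were higher and 0 lower with N642H and with Y665F, among them Dlat at 0.38 (adjusted p = 0.0188) with N642H and Dlst at 0.40 (adjusted p = 0.0137) with Y665F. In null against WT cells, Mdh2 was lower at -0.34 (adjusted p = 0.0455). The shares over all genes given above for these comparisons stand beside these counts too.

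**Figure D2:**
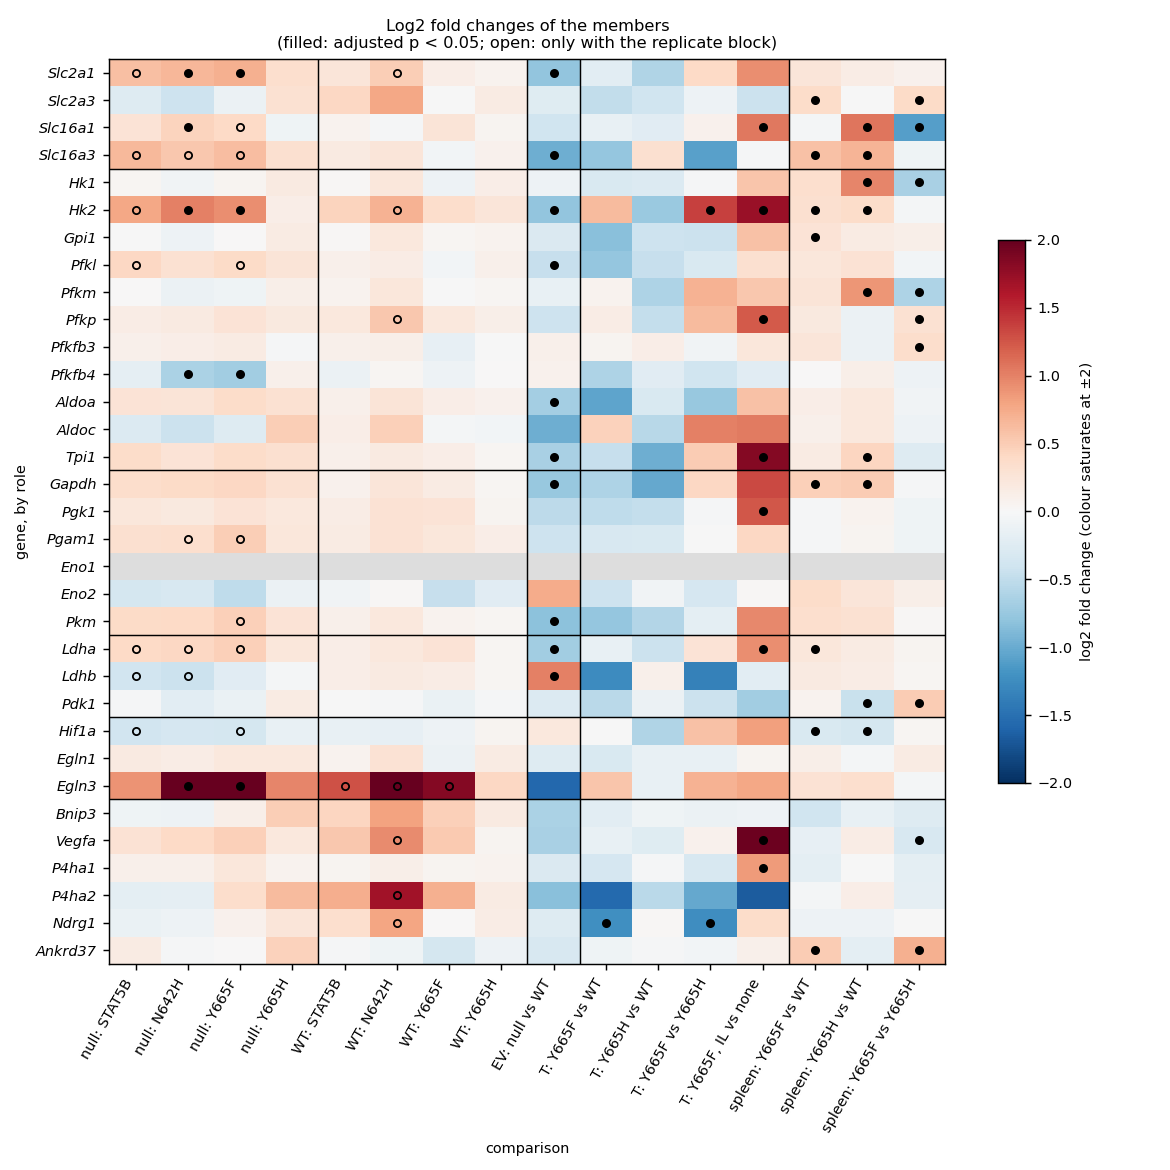
Log2 fold changes (colour, saturating at 2 in either direction) of the 33 members (rows, by role) in 16 comparisons (columns; EV, empty vector). Filled circles mark an adjusted p under 0.05 and open circles members that pass only with the replicate block in CD4+ T cells. Eno1 is left grey, since it was not read in splenic T cells or spleens and its few reads in CD4+ T cells are not described. It still counts among the 33 members tested in CD4+ T cells. Egln3 is the most strongly coloured row for N642H and Y665F in either background, and the column of null against WT cells is mostly blue.

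In splenic T cells with IL-2 and IL-7, Ndrg1 was lower in Y665F than in both WT and Y665H cells, and Hk2 was higher in Y665F than in Y665H cells. The share of reads outside genes was 63.9% to 72.6% in WT libraries, 68.7% to 71.9% in Y665H, 67.6% to 84.0% in Y665F and 77.7% to 85.7% in Y665F without interleukin. Y665F replicate 3 had the highest summed level of erythroid markers among the 4 libraries of its group, 1141 CPM against 10.3 to 97.6 CPM in the others, and of B-cell markers, 636 CPM against 17.2 to 185 CPM, while T-cell markers were at 913 to 2580.3 CPM over the group. The erythroid markers Hba-a1, Hbb-bs and Hbb-bt were listed at 0 in every T-cell library. Of 7 erythroid markers tested, 3 were higher in Y665F than in WT T cells, as were 1 of 6 B-cell, 4 of 7 neutrophil and 1 of 8 cycling genes, and 1 of 8 T-cell markers, Cd4, was lower. Neutrophil markers summed to 6.29 to 13.2 CPM in WT, 22.0246 to 71.0139 CPM in Y665H and 69.5 to 284 CPM in Y665F libraries. The paper also reports relatively more central memory and fewer naive CD8+ T cells in Y665F than in WT or Y665H mice. The part of these markers and subsets in the results was not tested.

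Between Y665F and WT T cells, 1 of 32 members was lower, beside 0.327% of all 22295 genes, and 0 were higher. DESeq2 called 2 members and a fit with 1 factor of unwanted variation 8, all of them lower in Y665F, while the replicate block called 0. Over all genes, DESeq2 called 420 of 14936 lower, and the share with the factor is not given here. The median log2 fold change of the members was -0.33 against 0.08 over all genes, which was 0.22 with the size factors of DESeq2. The called gene was Ndrg1, at 20.9997, 27.2, 29.8 and 23.6 CPM in WT, 11.8, 13.2, 7.63 and 10.2 CPM in Y665F and 34.01, 18.8 and 24.1 CPM in Y665H cells. Every Y665F library was below every library of the other genotypes, with log2 fold changes of -1.23 (SE 0.26, adjusted p = 0.017) against WT and -1.24 (SE 0.28, adjusted p = 0.0139) against Y665H. Without the 3 shallowest libraries these were -1.11 (adjusted p = 0.0214) and -1.03 (adjusted p = 0.334), in a fit where Y665H is left with replicate 3 alone and is assumed to vary like the other groups. The call against WT was lost without WT replicate 2 or 4 or without Y665F replicate 4, and the aldolase gene Aldoa joined it without Y665F replicate 1.

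Between Y665H and WT T cells, 0 members were called by edgeR, beside 0.00% of all genes, with 5 at an unadjusted p under 0.05 and 0 by DESeq2. The smallest p belonged to Tpi1, at 22.6, 38.8, 54.1 and 34.5 CPM in WT and 20.9, 15.9 and 20.3 CPM in Y665H cells, without overlap. Gapdh came next, at 32.4, 66.7, 129.9 and 37.3 CPM and 48.5, 21.2 and 28.3 CPM, with overlap. The log2 fold changes were -0.97 (SE 0.36, adjusted p = 0.943) and -1.02 (SE 0.46, adjusted p = 0.943). Tpi1 was picked by its p in these same libraries, so its lack of overlap is no further support.

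Between Y665F and Y665H T cells, 2 members were called, beside 2.74% of all genes, 1 of them higher in Y665F and 1 lower, while of all genes 434 were higher and 176 lower. The lower one was Ndrg1, with the values above. Hk2 stood at 22.6, 17.6, 13.5 and 20.3 CPM in Y665F and 4.46, 7.23 and 9.37 CPM in Y665H cells, without overlap, at 1.37 (SE 0.36, adjusted p = 0.0392). These calls rest on few libraries, since 0 were left without the 3 shallowest, where Hk2 was at 1.11 (adjusted p = 0.562), without Y665H replicate 1, without Y665F replicate 4 and with the replicate block. Ndrg1 alone was called without Y665H replicate 2 or 3 or without Y665F replicate 1 or 2, and when the summed table stood in place of replicates 1 and 2. With all 4 Y665H tables as deposited, in which the reads of replicates 1 and 2 count again, 4 members were called, as with DESeq2. Over all genes, DESeq2 called 1524 of 14071. Cycling genes differed too, 5 of 8 being higher in Y665F, with summed levels of 438 to 618 CPM in Y665F and 106 to 223 CPM in Y665H libraries, and 2 of 6 B-cell markers were higher, and their part was not tested.

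Y665F T cells cultured with interleukins had higher levels of glycolytic genes than Y665F T cells without interleukin. Interleukins and the 24 h of culture cannot be told apart here. Of 32 members, 8 were higher with IL-2 and IL-7, beside 2.36% of all genes, and 0 were lower, and the median log2 fold change was 0.57 against -0.13 over all genes. With DESeq2, whose size factors put the median over all genes at -0.27, 8 were higher, beside 768 of 13639 genes. It called 2 lower, the glucose transporter gene Slc2a3 and Pdk1, beside 600 genes. With RLE factors 8 were higher and 1 lower. By role, 3 of 11 genes of upper glycolysis (Hk2, Pfkp and Tpi1), Pgk1 of lower glycolysis, Ldha, Slc16a1 and the hypoxia targets Vegfa and P4ha1 were higher. The libraries with interleukins also had more cycling gene RNA, 5 of 8 genes being higher, with 438 to 618 CPM in sum against 117 to 242 CPM, and 1 of 8 T-cell markers, Cd8a, was higher, while the shares of reads outside genes given above, 67.6% to 84.0% with and 77.7% to 85.7% without interleukins, overlapped. The part of these in the result was not tested.

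Vegfa stood at 9.12, 8.30, 11.2 and 6.47 CPM with interleukins and 2.998, 2.03 and 1.66 CPM without, at 1.97 (SE 0.37, adjusted p = 0.00159). Tpi1 stood at 42.1, 32.1, 9.39 and 23.4 CPM with and 8.48, 6.86 and 7.41 CPM without, at 1.84 (SE 0.37, adjusted p = 0.00333), and Y665F replicate 3 was the lowest of the libraries with interleukins. Hk2 was at 8.06, 6.23 and 2.63 CPM without interleukin, below all libraries with it, at 1.73 (SE 0.36, adjusted p = 0.00426). In these 3 genes the groups did not overlap, and how many of all genes were also apart was not counted.

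Pgk1, which encodes phosphoglycerate kinase, stood at 50.7, 37.9, 14.97 and 26.8 CPM with interleukins and 11.4, 12.4 and 18.1 CPM without, and replicate 3 of the cells with interleukins lay below the highest library without, at 1.24 (SE 0.31, adjusted p = 0.024). Pfkp stood at 205, 192, 129 and 179.6 CPM with and 62.03, 89.8 and 75.8 CPM without, apart, at 1.22 (SE 0.22, adjusted p = 0.00124). Slc16a1 stood at 96.5, 87.9, 66.6 and 77.1 CPM with and 34.7, 46.8 and 37.2 CPM without, also apart, at 1.05 (SE 0.22, adjusted p = 0.00439). The lactate dehydrogenase gene Ldha at 0.94 and the collagen prolyl hydroxylase gene P4ha1 at 0.84 made up the 8. Without the shallowest libraries, 12 members were called, with Tpi1 at 2.10 (adjusted p = 3.52e-05) and Vegfa at 1.85 (adjusted p = 0.00139). The count was 5 without replicate 1 or 2 of the cells with interleukins and without replicate 1 or 3 of those without, and Vegfa, Tpi1, Pfkp and Slc16a1 were among the 5 each time. It was also 5 with the replicate block, beside 367 of 22295 genes called higher. The share over all genes is not given for the fits with libraries left out.

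Few pathway genes outside the 33 separated the T-cell groups. Of 23 further glycolysis genes, 1 was higher with interleukins, Adpgk at 0.84 (adjusted p = 0.0381), and of 27 further HIF genes 1 was, Car12 at 2.16 (adjusted p = 0.000687). Of all genes, 2.36% were higher. In the 3 comparisons between genotypes, 0 genes of these 2 lists were called by edgeR. Of all 22295 genes, 321 were called for Y665F against WT, 0 for Y665H against WT and 610 for Y665F against Y665H.

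**Figure D3:**
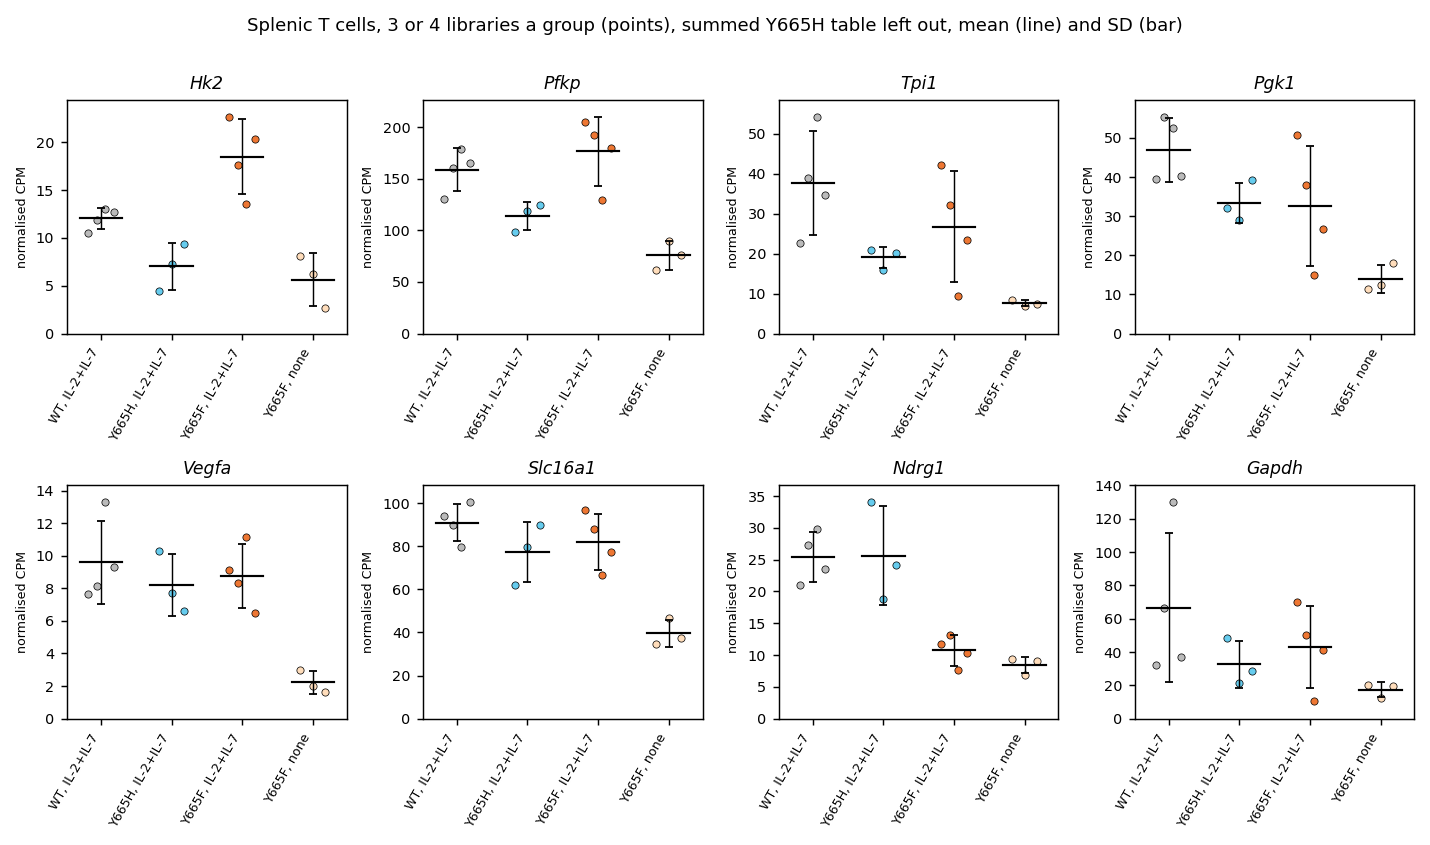
Normalised CPM (vertical axis, from 0) of 8 members in 4 groups of splenic T cells (horizontal axis), with a point per library, the mean as a line and the SD as a bar. Hk2, Pfkp, Vegfa and Slc16a1 lie higher in all Y665F libraries with interleukins than without, and Ndrg1 lies lower in Y665F than in WT or Y665H libraries.

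In spleens, 8 of 32 members were called between Y665F and WT, beside 2373 of all 19418 genes. Between Y665H and WT 9 were called, beside 3837 genes, and between Y665F and Y665H 9, beside 5015 genes. Slc16a1, Hk1 and Pfkm, the members with the largest differences in Y665H, were high in the same libraries as erythroid and cycling genes. The deposited tables list 0 reads on the line for unaligned reads in all 4 WT spleens and 95747 to 158811 in the mutant spleens, so that genotype and a difference in how the tables were made cannot be told apart in comparisons with WT. Summed erythroid markers lay at 901 to 1999 CPM in WT, 1033 to 6677 CPM in Y665H and 560.3 to 1994 CPM in Y665F spleens, and Hbb-bt was listed at 0 in every spleen. Summed cycling genes lay at 1307 to 2590, 1972 to 7678 and 1224 to 3176 CPM in the same order, neutrophil markers at 194 to 316, 120.0 to 1535 and 389 to 951 CPM, and T-cell markers at 549.7 to 633, 359 to 530.2 and 734 to 975 CPM. The lowest of the Y665H values for erythroid, cycling and neutrophil genes were those of replicate 1. The part of these cells in the results was not tested.

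Between Y665F and WT spleens, 7 of 32 members were higher, beside 5.63% of all 19418 genes, and 1 was lower, beside 6.59%, with a median log2 fold change of 0.18 against 0.00 over all genes. T-cell markers were higher too, 6 of 8 being called, as were 5 of 7 neutrophil markers, and 2 of 7 macrophage and 2 of 6 B-cell markers were lower. Slc2a3, the gene of the glucose transporter GLUT3, stood at 55.1, 54.99, 69.5 and 64.7 CPM in WT spleens and had a lowest, median and highest level of 74.2, 78.7 and 84.5 CPM in Y665F, without overlap, at 0.37 (SE 0.08, adjusted p = 0.00426). Ankrd37 stood at 4.70, 6.41, 5.42 and 6.24 CPM in WT and had a lowest, median and highest level of 7.16, 7.73 and 9.31 CPM in Y665F, also apart, at 0.51 (SE 0.11, adjusted p = 0.00664). Hk2 stood at 21.9, 22.5, 27.8 and 25.99 CPM in WT and had a lowest, median and highest level of 28.9, 30.7 and 32.8 CPM in Y665F, again apart, at 0.32 (SE 0.07, adjusted p = 0.00766).

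The other called genes of Y665F overlapped with WT, except Ldha, which did not. Slc16a3 stood at 3.19, 3.46, 4.89 and 4.95 CPM in WT and had a lowest, median and highest level of 4.91, 6.30 and 7.70 CPM in Y665F, at 0.59 (SE 0.17, adjusted p = 0.0319). Gapdh stood at 94.2, 92.4, 164 and 148 CPM in WT and had a lowest, median and highest level of 148, 173 and 197 CPM in Y665F, at 0.48 (SE 0.13, adjusted p = 0.026). Hif1a stood at 306, 291, 231 and 241 CPM in WT and had a lowest, median and highest level of 201, 212 and 238 CPM in Y665F, at -0.30 (SE 0.08, adjusted p = 0.0153). In Gapdh, Slc16a3 and Hif1a the WT spleens fell into replicates 1 and 2 on one side and 3 and 4 on the other, and the calls of these 3 genes were lost without WT replicate 1 or 2. The count of called members was 3 without either of these and 5 without Y665F replicate 5. Gpi1 (glucose-6-phosphate isomerase) and Ldha were higher by 0.28 and 0.22 on the log2 scale.

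Between Y665H and WT spleens, 7 members were higher, beside 10.7% of all genes, and 2 were lower, beside 9.05%, with a median log2 fold change of 0.15 against 0.00. Slc16a1 stood at 167, 132, 184 and 130.1 CPM in WT and 108, 373, 417, 329 and 379 CPM in Y665H spleens, Hk1 (hexokinase 1) at 91.9, 73.1, 121 and 88.99 CPM and 99.9, 222, 214, 156 and 229 CPM, and Pfkm (the muscle form of phosphofructokinase) at 19.2, 14.01, 26.4 and 15.8 CPM and 20.5, 46.04, 41.3, 31.7 and 33.5 CPM. In all 3 genes, replicate 1 of the Y665H spleens lay below the highest WT spleen while the other 4 lay above every WT spleen. The log2 fold changes were 1.07 (SE 0.29, adjusted p = 0.0153), 0.98 (SE 0.20, adjusted p = 0.00323) and 0.88 (SE 0.22, adjusted p = 0.00961). Without Y665H replicate 1 they were 1.32 (adjusted p = 8.02e-05), 1.16 (adjusted p = 3.03e-05) and 1.05 (adjusted p = 0.000652), and 11 members were called. Slc16a1 lost its call without WT replicate 2, while Hk1 and Pfkm kept theirs. Of the erythroid markers, 6 of 8 tested were higher in Y665H, as were all 8 cycling genes and all 7 neutrophil markers, while 5 of 8 T-cell and 2 of 6 B-cell markers were lower and 0 of 7 macrophage markers were called.

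Slc16a3 stood at 5.58, 6.30, 9.17, 5.45 and 6.55 CPM in Y665H spleens, above all WT spleens, at 0.67 (SE 0.18, adjusted p = 0.0137). Gapdh stood at 179, 189, 187, 162 and 169 CPM, with overlap, at 0.51 (SE 0.14, adjusted p = 0.0172). Pdk1, the kinase that shuts off pyruvate dehydrogenase, stood at 129, 138, 126 and 135 CPM in WT and 106, 88.6, 99.96, 101 and 91.4 CPM in Y665H spleens, apart, at -0.44 (SE 0.08, adjusted p = 0.00208). Tpi1 at 0.42 and Hk2 at 0.36 were higher and Hif1a at -0.35 lower on the log2 scale. Without WT replicate 2 the count of called members was 5, and Slc16a1, Slc16a3, Gapdh and Tpi1 lost their calls. Those of Gapdh and Tpi1 were also lost without WT replicate 1, and that of Tpi1 without Y665H replicate 2 or 3.

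Between Y665F and Y665H spleens, where both groups had reads on the unaligned line, 5 members were higher in Y665F, beside 10.5% of all genes, and 4 were lower, beside 15.3%. Ankrd37 stood at 5.16, 4.56, 4.59, 5.27 and 5.25 CPM in Y665H, below all Y665F spleens, at 0.71 (SE 0.10, adjusted p = 0.000138). Pdk1 had a lowest, median and highest level of 123, 133 and 159 CPM in Y665F, above all Y665H spleens, at 0.51 (SE 0.07, adjusted p = 9.06e-05). Slc2a3 stood at 55.7, 58.3, 69.8, 59.1 and 61.2 CPM in Y665H, below all Y665F spleens, at 0.38 (SE 0.07, adjusted p = 0.000886). These 3 genes kept the genotypes apart in every library, and how many of all genes did so was not counted.

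Slc16a1 had a lowest, median and highest level of 98.2, 144 and 209 CPM in Y665F, Hk1 had a lowest, median and highest level of 105, 107 and 143 CPM and Pfkm had a lowest, median and highest level of 18.2, 20.7 and 29.1 CPM, and each overlapped with Y665H through replicate 1 of Y665H. The log2 fold changes were -1.11 (SE 0.25, adjusted p = 0.00305), -0.64 (SE 0.17, adjusted p = 0.0089) and -0.62 (SE 0.19, adjusted p = 0.0205), and without that replicate -1.35 (adjusted p = 7.39e-06), -0.82 (adjusted p = 8.38e-05) and -0.78 (adjusted p = 0.0014). Pfkm lost its call without Y665H replicate 2 or 3. The regulator Pfkfb3 at 0.35 and Pfkp at 0.31 were higher in Y665F and Vegfa at -0.31 lower on the log2 scale. Of the erythroid markers tested, 7 of 8 were lower in Y665F than in Y665H, as were all 8 cycling genes, while all 8 T-cell markers were higher.

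Of 22 further glycolysis genes tested in spleens, 0 were higher and 1 lower in Y665F against WT, namely Bpgm at -1.21 (adjusted p = 0.0115), while 2 were higher and 1 lower in Y665H, led by Pklr, the pyruvate kinase of liver and red cells, at 1.48 (adjusted p = 0.0223) and Gpd1 at 1.05 (adjusted p = 0.0119). Against Y665H, 2 were higher and 5 lower in Y665F, led by Bpgm at -1.62 (adjusted p = 0.000446) and Gpd1 at -1.22 (adjusted p = 0.00117). Of 27 further HIF genes, 2 were higher and 0 lower in Y665F than in WT, and 1 was higher and 2 lower in Y665H than in WT. In Y665F against Y665H, 2 were higher and 3 lower. Beside the counts of these lists stand 2373, 3837 and 5015 of all 19418 genes called in the same order of comparisons. Car12 was higher in Y665F than in WT at 1.41 (adjusted p = 8.19e-05) and than in Y665H at 1.77 (adjusted p = 6.87e-07), Mif was higher in Y665F than in WT at 0.55 (adjusted p = 0.0369), Bnip3l was lower in Y665F than in Y665H at -0.93 (adjusted p = 0.00175), and Mxi1 was higher at 0.93 (adjusted p = 0.00655) and Gbe1 lower at -0.38 (adjusted p = 0.00371) in Y665H than in WT. Of 7 pentose phosphate genes, 4 were higher in Y665H than in WT, led by Tkt at 0.71 (adjusted p = 0.0158) and Taldo1 at 0.61 (adjusted p = 0.032), and 1 in Y665F, Pgd at 0.36 (adjusted p = 0.0033). Of 20 genes of pyruvate dehydrogenase and the TCA cycle, 5 were higher in Y665H than in WT, led by Dlst at 0.35 (adjusted p = 0.00702) and Mdh2 at 0.35 (adjusted p = 0.0256), and Fh1 was lower in Y665F than in WT at -0.19 (adjusted p = 0.0325).

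**Figure D4:**
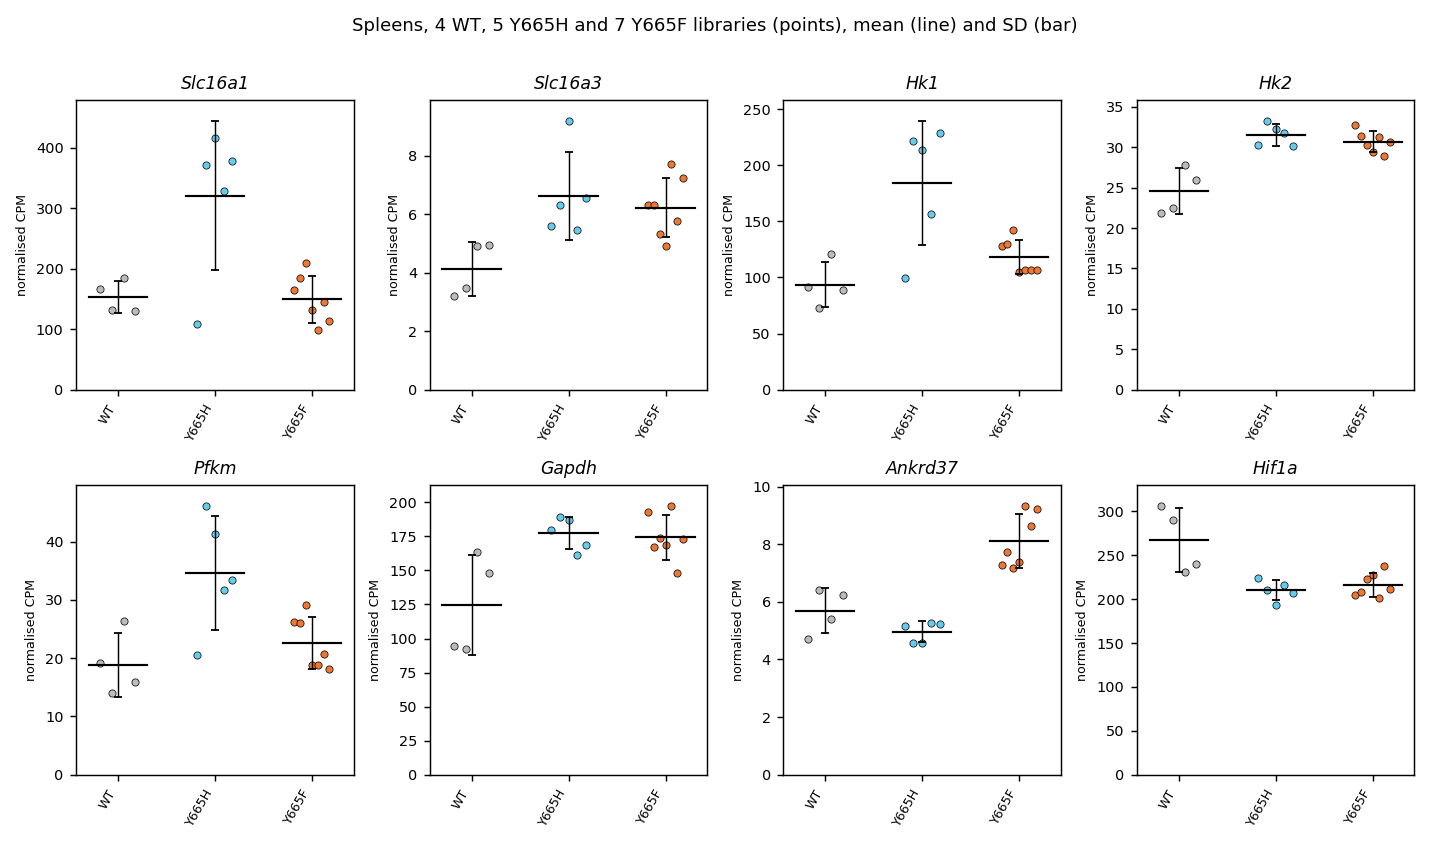
Normalised CPM (vertical axis, from 0) of 8 members in WT, Y665H and Y665F spleens (horizontal axis), with a point per library, the mean as a line and the SD as a bar. In Slc16a1, Hk1 and Pfkm 4 of the 5 Y665H spleens lie above all WT spleens, and Ankrd37 lies higher in all Y665F spleens than in any other.

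The remaining members were called in none of the 21 comparisons by edgeR in the fit without the block or another alternative. They were Eno2, Egln1, Bnip3, P4ha2 and Aldoc, together with Eno1 and Pgam1. With single libraries left out, Eno2 was called between null and WT cells and Pgam1 with Y665F in null cells. Egln1 was then called between Y665F and Y665H spleens and Bnip3 between Y665F and WT spleens. Aldoc and Eno2 are the brain forms of aldolase and enolase, and their group means lay between 0.822 and 69.6 CPM and between 1.44 and 8.22 CPM. Bnip3, a gene of mitochondrial turnover, had means from 7.18 to 184 CPM, and Egln1, the main oxygen-dependent hydroxylase of HIF-1 alpha, from 36.1 to 258 CPM. P4ha2 had means from 0.254 to 30.3 CPM.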

How the data were processed

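RNA of 30 CD4+ T-cell, 15 splenic T-cell and 16 spleen libraries was sequenced after ribosomal RNA depletion. The authors trimmed reads with Trimmomatic 0.36, aligned them with STAR to mm10 and deposited raw counts per gene from HTSeq 0.9.1, one table per library. FastQC 0.11.9, Picard 2.9.2 and SAMtools 1.9 are also in the submitters' processing notes, while the strand setting and the gene annotation are not given in the sources used here.

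Lines that name no gene were left out of library sizes, and their share of all reads was 28.4% to 36.9% in CD4+ T cells, 63.9% to 85.7% in splenic T cells and 62.8% to 69.4% in spleens. Genes with at least 10 reads over the libraries of a fit were tested with edgeR 4.0.16 (R 4.3.3), using TMM factors and the quasi-likelihood test, with Benjamini-Hochberg adjustment over all genes and a threshold of 0.05. One fit over all groups was made for each of null cells, WT cells, the 2 backgrounds pooled, T cells of the spleen and spleens. The SE is the log2 fold change divided by the root of F. Replicate 4 of the Y665H T cells equals the sum of replicates 1 and 2 on every line of its table, the only such case within a group, and was left out of all T-cell values. The design had set all 15 T-cell libraries, and fits with every table as deposited and with the sum in place of its parts were added after seeing the data. DESeq2 1.42.0, RLE factors, no filter, a fold minimum, RUVr factors, the replicate block and the removal of each library were alternatives. The members, lists and comparisons were chosen with earlier results of these data known. Values were given for up to 6 called members with the largest absolute log2 fold change and a mean of at least 1 CPM, or, where none was called, for the 2 with the smallest p, and in other pathway lists the 2 called genes with the largest change were named. Members called by the block alone were added after their values were seen. Exon lengths for levels per kilobase came from GENCODE M21.

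Libraries of the same number deviated together in the null cells, where 30 of 30 pairs had a correlation above 0.1, and in the WT cells, where 30 of 30 did, against 5 of 19 in T cells and 4 of 13 in spleens. The pairing is read from the data, since the labels name no shared culture. The fit was tested on simulated data with known changes before use, in 1 comparison per fit. Of 100 genes changed by 1 on the log2 scale, 25 were recovered in T cells of the spleen and 70 to 88 in the other fits. Of 100 changed by 2 on the log2 scale, 83 were recovered in T cells of the spleen and 98 to 100 in the others. One gene of the further pathway lists is not reported here.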

Additional observations from a re-analysis of the deposited data

Results flagged for a closer look

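In the groups of 4 to 10 libraries, 68 groups of values of named members were examined and 2 held 1 library far from the others by Dixon's criterion at 95%, which flags about 1 group in 20 by chance. Slc16a1 stood at 108 CPM in replicate 1 of the Y665H spleens, below the other 4. Pfkp stood at 73.2 CPM in replicate 2 of the WT spleens. Outside the gene counts, the line for unaligned reads held a median of 110188 reads in Y665H and 143802 in Y665F spleens and 0 in every WT spleen, and what set this difference was not tested.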

How the results depend on the processing

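The counts of called members depended on the fit, while no log2 fold change of a named member changed sign under an alternative. With RLE factors all 21 counts stayed within 1.5 times, and without the filter on low counts only N642H in WT cells moved, from 0 to 1. The replicate block, which follows pairs seen in the data for CD4+ T cells, gave 7 (STAT5B), 9 (N642H) and 11 (Y665F) called members over the empty vector in null cells, 1 (STAT5B), 7 (N642H) and 1 (Y665F) in WT cells, and 1 for Y665H against STAT5B, and with a block of each background, added after seeing the data, 1 for the difference in N642H response. In T cells and spleens the libraries share only a number, and the block gave 0 for Y665F against WT and against Y665H T cells, 5 for interleukins, 1 for Y665F and 5 for Y665H against WT spleens. It moved no other count by over 1.5 times. DESeq2 gave 2 for STAT5B and 8 for Y665F in null cells, 3 for N642H and 1 for Y665F in WT cells, 2 for Y665F against WT and 4 for Y665F against Y665H T cells. For Y665F in null cells it called 3135 of 13483 genes, and the other counts over all genes are given above. A factor of unwanted variation gave 1 for STAT5B in null cells, 1, 4 and 1 for STAT5B, N642H and Y665F in WT cells, and 8 for Y665F against WT T cells. With a log2 fold change beyond 1 asked for, 2 (N642H) and 1 (Y665F) members were left in null cells, 1 in null against WT cells, and 0, 1 and 1 in spleens for Y665F and Y665H against WT and Y665F against Y665H. The choices on T-cell libraries were added after seeing the data and moved only Y665F against Y665H, from 2 to 4 with every table as deposited, to 1 with the summed table in place of its parts, and to 0 without the 3 shallowest libraries. Leaving out 1 library at a time gave 0 to 3 (STAT5B), 0 to 6 (N642H) and 0 to 7 (Y665F) in null cells, 0 to 2 for N642H and for Y665F in WT cells, 2 to 10 for null against WT cells, 0 to 2, 0 to 2 and 5 to 10 for Y665F against WT, Y665F against Y665H and interleukins in T cells, and 3 to 10, 5 to 12 and 8 to 11 for Y665F against WT, Y665H against WT and Y665F against Y665H in spleens. The cause of these moves was not tested, other than that fewer libraries or a stricter threshold enter by construction. Shares over all genes are not given for fits with libraries left out or with a factor of unwanted variation. Shallow T-cell libraries limit what could be detected in members at a few CPM. In the simulation, 25 of 100 changes of 1 on the log2 scale were recovered in T cells, so few or 0 calls there do not show that members were unchanged.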
